A study of Homo sapiens with 2 samples.

Results

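The transcripts described here are 10 isoforms listed under the HNRNPC locus on chromosome 14 in the UCSC Known Genes naming for the genome build hg19. They were chosen by their measured read number, as the 10 transcripts with the highest mean CPM (a count divided by the library total and multiplied by 1000000) among the 68731 transcripts of the deposited tables. The levels of these 10 are therefore given as a description, with no test. The deposited tables name transcripts by ID alone, and 0 of the 10 IDs were found in the RefSeq gene table used here (GRCh38.p14), so the link from ID to gene rests on the UCSC naming and was not checked against a sequence. The other members of the hnRNP family were not evaluated for the same reason.

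The data are from CLIP-seq of DDX3X, which sequences the RNA fragments that ultraviolet light has fixed to DDX3X in the cell and that an anti-DDX3X antibody then pulls down. HEK293FT cells, an established line of human embryonic kidney origin with the genotype Wt, were kept at rest in DMSO, the solvent control of a study of acute stress of the endoplasmic reticulum. The labels also name a stranded mRNA library kit beside the CLIP procedure, and whether the counts are of crosslinked fragments alone is not settled by them. A treatment field in the labels reads as untreated, while another gives DMSO. The 2 libraries are replicates of 1 group, with 19307022 counts in replicate 1 and 11238842 counts in replicate 2, and nothing in the labels says whether they came from separate cultures. Thapsigargin-treated cells, input RNA and a control precipitation were not analysed here, so a count cannot separate the abundance of an RNA from its recovery with DDX3X.

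DDX3X is a DEAD-box helicase that unwinds RNA and takes part in the initiation of translation. HNRNPC encodes the hnRNP C proteins, abundant nuclear RNA-binding proteins that assemble on nascent transcripts and favour tracts of uridine. They help to keep intronic sequences, among them Alu elements inserted in antisense, from being spliced into mRNA. The main protein forms, C1 and C2, arise by alternative splicing and differ by a short in-frame insert in C2.

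All 10 isoforms had nearly the same number of reads although the longest was 1.95 times as long as the shortest. This closeness is in part set by the choice of the 10 by read number, which leaves out isoforms with lower counts. Lengths were derived from count and TPM (transcripts per 1000000, a length-scaled unit), and were not compared with an annotation. The longest isoform, uc010ail.2 (3580 nt), had 27393 counts in replicate 1 and 12933 in replicate 2. The shortest, uc001wae.2 (1838 nt), had 26801 and 12560. The shortest thus carried 97.8% of the reads of the longest in replicate 1 and 97.1% in replicate 2, with 51.3% of its length.

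The second of the short isoforms, uc001waf.2 (1864 nt), had 26803 counts in replicate 1 and 12563 in replicate 2. Between the short pair and uc010ail.2 in length lay 7 isoforms of 3055 to 3249 nt. Of these, uc001wac.2 (3055 nt) had 27022 counts in replicate 1 and 12740 in replicate 2. uc010tlq.1 (3128 nt) had 27167 and 12792 counts. Both stood between the short pair and the remaining 5.

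uc001vzz.2 (3184 nt) had 27282 counts in replicate 1 and 12823 in replicate 2. uc001wab.2 (3207 nt) had 27250 and 12821. uc001vzw.2 (3210 nt) had 27284 and 12826. These 3 isoforms lay within 34 reads of each other in replicate 1 and within 5 in replicate 2.

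uc001waa.2 (3223 nt) had 27296 counts in replicate 1 and 12834 in replicate 2. uc001vzy.2 (3249 nt) had 27298 and 12837. The order of the 10 isoforms by count was the same in both libraries. Reads common to several isoforms may appear in several counts, although the counting rule is not known. The 10 values are therefore not taken as independent measurements, nor this order as repeated evidence from 10 sources.

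**Figure D1:**
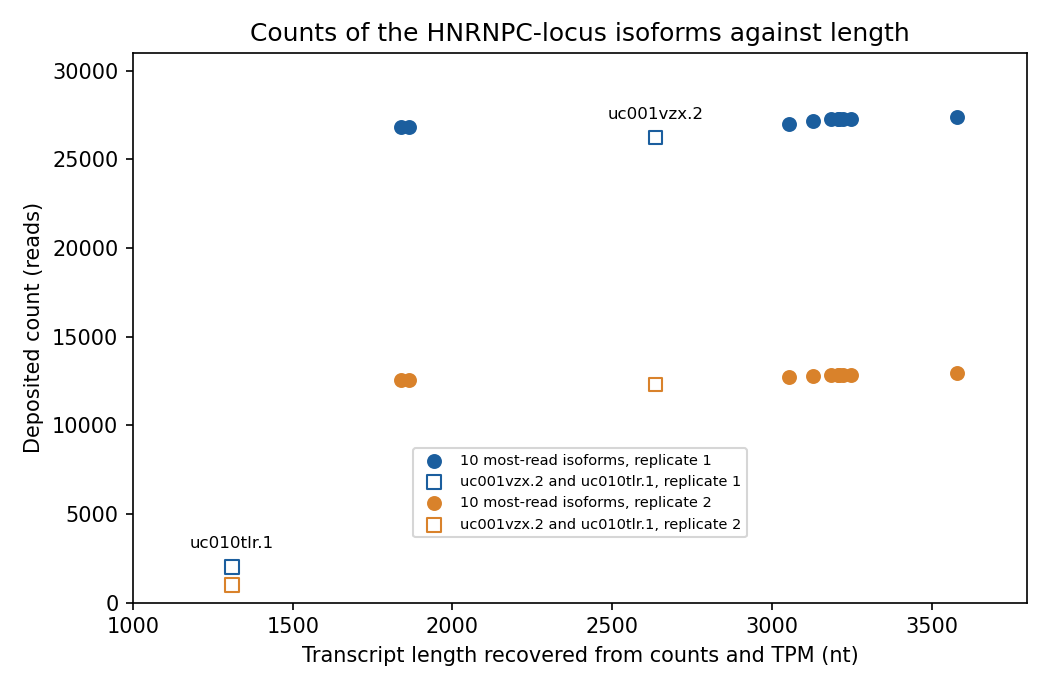
Deposited count (reads, linear axis from 0) against recovered transcript length (nt) for the 10 isoforms (filled circles) and for uc001vzx.2 and uc010tlr.1 (open squares), with replicate 1 in blue and replicate 2 in orange. The 10 isoforms lie between 26801 and 27393 counts in replicate 1 and between 12560 and 12933 in replicate 2 from 1838 to 3580 nt, while uc010tlr.1, at 1310 nt, has 2005 and 988.

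On the CPM scale the level averaged over the 10 isoforms was 1407 in replicate 1 and 1136 in replicate 2, a mean of 1272 ± 191.1 (SD, n = 2). uc010ail.2 had 1285 ± 189.6 CPM and uc001wae.2 had 1253 ± 191.3 CPM (SD, n = 2 each). This SD reflects a shift between the libraries that all 10 isoforms share, so it says little about their order, which was the same in both libraries. The next transcript by mean CPM, uc002ick.2 (676 nt), had 1231 ± 233 CPM (SD, n = 2), and its gene was not identified here. It had more reads than uc001wae.2 in replicate 1, at 26945, and fewer in replicate 2, at 11982.

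Dividing by length turned near-equal counts into unequal levels. In deposited TPM, uc001wae.2 had 1422 in replicate 1 and 1185 in replicate 2, and uc010ail.2 had 746.3 and 626.4. The shorter isoform stood 1.91-fold above the longer in replicate 1 and 1.89-fold in replicate 2, although it had fewer reads in each. uc001wae.2 and uc001waf.2 ranked 42nd and 43rd of all transcripts by mean TPM, and uc010ail.2 ranked 94th. Per nt of transcript, uc001wae.2 had 14.6 reads in replicate 1 and 6.83 in replicate 2. uc010ail.2 had 7.65 and 3.61 reads per nt.

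Such repeated counting, where it took place, would also weigh on totals. The 10 counts summed to 271596 in replicate 1, or 1.41% of that library, and to 127729 in replicate 2, or 1.14%. These sums were 9.91 and 9.88 times the highest single count. With the counting rule unknown, they cannot be read as separate reads. A single isoform, uc010ail.2, accounted for 0.142% of replicate 1 and 0.115% of replicate 2. The same sums were 18.8% of the summed counts of the 100 most-read transcripts in replicate 1, and 16.8% in replicate 2. The 10 are the highest of these 100 by the rule that chose them, so a high share was built in.

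The differences between the counts bear on how many reads fell outside the part the isoforms share. How reads over several transcripts were counted is not given in the sources used here. Where each read is counted once for every isoform that contains it, the difference between 2 counts is the number of reads held by one isoform alone minus the number held by the other alone. It is therefore a net figure and a lower bound on the reads outside the shared part. A length difference needs no such assumption, and does not change if a constant number of nt was taken off every length.

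Some length differences recurred exactly, and the same net number of reads recurred with them. uc001vzy.2 was 39 nt longer than uc001vzw.2, and uc001waa.2 was 39 nt longer than uc001vzz.2. Each pair differed by 14 reads in replicate 1 (exact Poisson 95% interval 7.65 to 23.5) and by 11 in replicate 2 (5.49 to 19.7). The net difference of 39 nt, a length equal to 13 codons, thus came with 0.359 net reads per nt in replicate 1. In that replicate uc001vzw.2 as a whole had 8.50 reads per nt. Whether this net length is an unbroken stretch, and where it lies within the transcripts, is not known. It was therefore not assigned to the insert of C2.

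A difference of 26 nt recurred in 3 pairs. uc001vzy.2 exceeded uc001waa.2, uc001vzw.2 exceeded uc001vzz.2, and uc001waf.2 exceeded uc001wae.2 by this length. In each pair the longer isoform had 2 more reads in replicate 1 (exact Poisson 95% interval 0.242 to 7.22) and 3 more in replicate 2 (0.619 to 8.77). The step was the same between the short isoforms as between the long ones. The long pairs join the same isoforms as the pairs with a 39 nt difference, so their equal steps follow from those above by arithmetic. The intervals cover counting error only, and equal steps in several pairs may be the same reads.

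The large step in length came with few net reads, which can be the balance of larger gains and losses. uc001wac.2 was 1217 nt longer than uc001wae.2 and had 221 more reads in replicate 1 and 180 more in replicate 2. That is 0.182 and 0.148 net reads per added nt, against 14.6 and 6.83 per nt for uc001wae.2 as a whole. From uc001wac.2 to uc010tlq.1, by contrast, 73 nt brought 145 and 52 net reads, or 1.99 and 0.712 per nt. From uc001vzy.2 to uc010ail.2, 331 nt brought 95 and 96 net reads, or 0.287 and 0.290 per nt. Across the whole range, the 1742 nt by which uc010ail.2 exceeded uc001wae.2 came with 592 net reads in replicate 1 and 373 in replicate 2. This is 2.16% and 2.88% of the reads of uc010ail.2 (2.39% with both libraries summed) for 48.7% of its length.

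**Figure D2:**
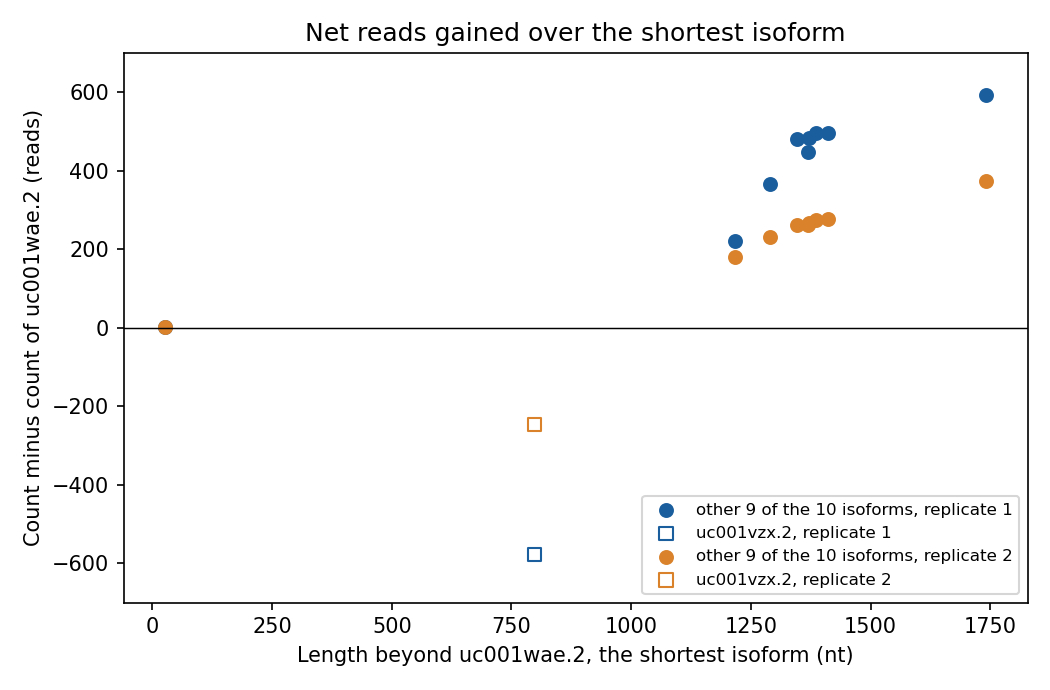
Count minus the count of uc001wae.2 (reads) against length beyond uc001wae.2 (nt) for the other 9 isoforms (filled circles) and uc001vzx.2 (open squares), with replicate 1 in blue and replicate 2 in orange. At 26 nt the points of both replicates overlap near 0 (2 and 3 reads), uc010ail.2 reaches 592 and 373 reads at 1742 nt, and uc001vzx.2 lies below 0 in both replicates.

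Of the 45 pairs that can be formed from the 10 isoforms, the longer had more reads in 44 in each replicate. The exception was uc001wab.2, which was 23 nt longer than uc001vzz.2 and had 32 fewer reads in replicate 1 and 2 fewer in replicate 2. uc001vzz.2 therefore held at least 32 and 2 reads that uc001wab.2 did not, under the counting described above. uc001vzw.2 and uc001wab.2 differed by 3 nt and by 34 and 5 reads. In 44 pairs in replicate 1 and in 45 in replicate 2, the net reads per nt of length difference were fewer than the reads per nt of the shorter isoform. The median of this relative density over the 45 pairs, which share isoforms and are not independent, was 0.0327 in replicate 1 and 0.0696 in replicate 2.

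Another transcript of the same ID run lay just below the 10. The IDs from uc001vzw to uc001waf allow 10 consecutive entries, of which 9 are in the tables and 8 are among the 10 isoforms. The remaining one, uc001vzx.2 (2636 nt), had 26224 counts in replicate 1 and 12314 in replicate 2, or 1227 ± 185.7 CPM (SD, n = 2), the 12th highest. It was 798 nt longer than uc001wae.2 but had 577 fewer reads in replicate 1 and 246 fewer in replicate 2. With it included, the spread between the highest and lowest counts of the run grew to 4.27% of the highest in replicate 1 and 4.79% in replicate 2. It was also the transcript outside the 10 closest to their mean levels, at a distance of 0.07 on the log2 CPM scale over the 2 libraries. uc002ick.2 was next, at 0.09.

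The run ended sharply at its edges. The following names were taken up because they neighbour the 10 in ID order, and whether they belong to the same gene is not known from the files. uc001vzu.1 (4275 nt), the entry before the run, had 107 counts in replicate 1 and 62 in replicate 2. uc001wag.2, the entry after it, had 0 in both, which allows up to 0.155 CPM in replicate 1 and 0.267 CPM in replicate 2. uc010tlr.1 (1310 nt), next after uc010tlq.1, had 2005 counts in replicate 1 and 988 in replicate 2. It thus had 7.48% and 7.87% of the reads of uc001wae.2, which is 528 nt longer.

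The replicates differed in level at these isoforms. The log2 ratio of CPM, replicate 1 over replicate 2, was 0.31 at the median of the 10 isoforms and spanned only 0.011 between the lowest and the highest. For uc010ail.2 it was 0.30 (exact binomial 95% interval 0.27 to 0.33), and for uc001wae.2 it was 0.31 (0.28 to 0.34). The two-sided exact binomial test of each transcript's split against the library-wide split, with Benjamini-Hochberg adjustment over 46395 transcripts with at least 10 summed reads, called all 10, with adjusted p of at most 3.7e-84. The same test called 48.6% of all transcripts tested, in either direction, and 23.6% as higher in replicate 1. Of the 155 transcripts of 10000 or more summed reads, the 10 included, it called 85.8%, and 56.8% as higher in replicate 1. The test sets the libraries against sampling noise alone and compares no conditions, and at this depth most transcripts pass it. Moreover, the 10 calls may rest on largely the same reads, so they are not taken as independent.

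The size of the ratio can be set beside other transcripts. The 145 other transcripts of 10000 or more summed reads had a median log2 ratio of 0.07 (quartiles -0.08 and 0.19), and 96.6% lay below the lowest of the 10 isoforms. Another set was the 3575 other transcripts of over 2000 and up to 5000 nt with 1000 or more summed reads. Their median was -0.03 (quartiles -0.24 and 0.17), and 86.6% lay below the lowest of the 10. This set is not matched to the 10 in read number, and uc001wae.2 (1838 nt) and uc001waf.2 (1864 nt) are shorter than its range. The 10 isoforms thus lay towards the replicate 1 side of both sets. Of the 145 transcripts, 4 exceeded the highest of the 10, as did 453 of the 3575.

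**Figure D3:**
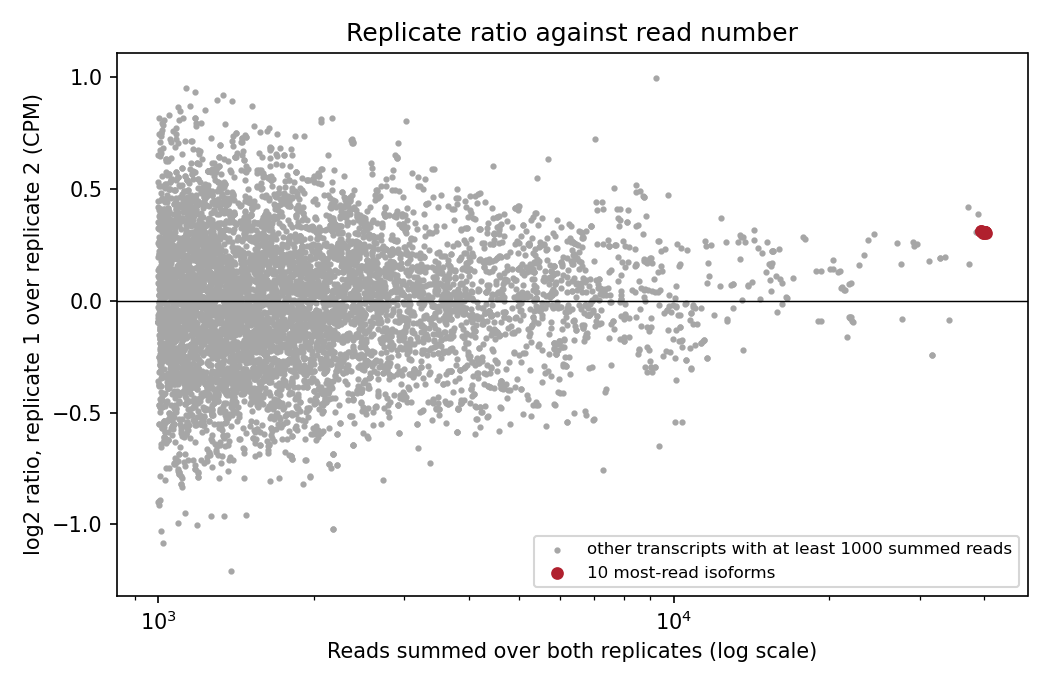
log2 ratio of CPM, replicate 1 over replicate 2, against reads summed over both replicates (log scale) for transcripts with at least 1000 summed reads, with the 10 isoforms in red and others in grey. The 10 isoforms overlap at a ratio near 0.31 at the right edge, where the other transcripts with at least 10000 reads have a median of 0.07.

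The net reads of the added lengths were not all split between the replicates as the isoforms themselves were. Replicate 1 held between 67.9% and 68.1% of the summed reads of each of the 10 isoforms, and 63.2% of all counts. Of the 191 net reads by which uc010ail.2 exceeded uc001vzy.2, replicate 1 held 49.7% (exact binomial 95% interval 42.4 to 57.0%). Of the 401 by which uc001wac.2 exceeded uc001wae.2 it held 55.1% (50.1 to 60.0%). Of the 197 by which uc010tlq.1 exceeded uc001wac.2 it held 73.6% (66.9 to 79.6%). Of the 115 and 31 net reads by which uc001vzz.2 exceeded uc010tlq.1, replicate 1 held 78.8% (71.2 to 85.1%). The departures thus ran in both directions. In 44 pairs the longer isoform had more reads in both replicates. Of these, the interval lay below the share of the whole isoforms in 19, above it in 9 and included it in 16. These pairs share isoforms and are not independent. The intervals treat each net figure as a count of separate reads. They are too narrow where reads were lost as well as gained, and with 1 value per library the spread between libraries is not included.

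The same measure was taken for other transcripts. Pairs of transcripts next to each other in ID order were taken where both had at least 1000 summed reads, lengths differed by at least 20 nt and counts lay within 10% in both libraries. The 5 such pairs within the 10 isoforms had relative densities of 0.00898 to 0.156 (both libraries summed), with a median of 0.0366. The limits left out higher values of the same ID run. uc001waa.2 and uc001wab.2, also adjacent, differed by only 16 nt and had 0.295. The pairs of uc001vzx.2 with uc001vzw.2 and with uc001vzy.2, at 0.187 and 0.178, were counted among the other pairs. The median over the 1875 other pairs was 0.126, with quartiles of 0 and 0.543, and 85.7% of them lay below 1. Without the limit on counts, 3580 other pairs had a median of 0.264, and 72.4% lay below 1. Within the limit, in 11.8% of the pairs the longer transcript had fewer reads, and in 17.1% an equal number. The limit of 10% on counts itself keeps the relative density low where the length step is large. The choice of the 10 isoforms by read number acts in the same way on their pairs.

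Length steps as large as that between the short and the long isoforms were looked at without the limit on counts, since within it no pair with a length ratio of at least 1.5 exceeded a relative density of 0.157. Of the 3580 pairs, 790 (22.1%) had such a length ratio. Their relative density had a median of 0.143 and quartiles of -0.047 and 0.544. The value for uc001wac.2 over uc001wae.2, with a length ratio of 1.66, was 0.0154. Both isoforms were chosen for their high counts, which lie close together, whereas the 790 pairs were not chosen in this way. A low value thus follows in part from the choice, and the comparison is a description only. In 235 of the 790 pairs (29.7%) the longer transcript had fewer reads, and in a further 20 (2.53%) the relative density lay between 0 and that of the HNRNPC isoforms. Pairs of adjacent IDs can also belong to different genes, which the files do not show.

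**Figure D4:**
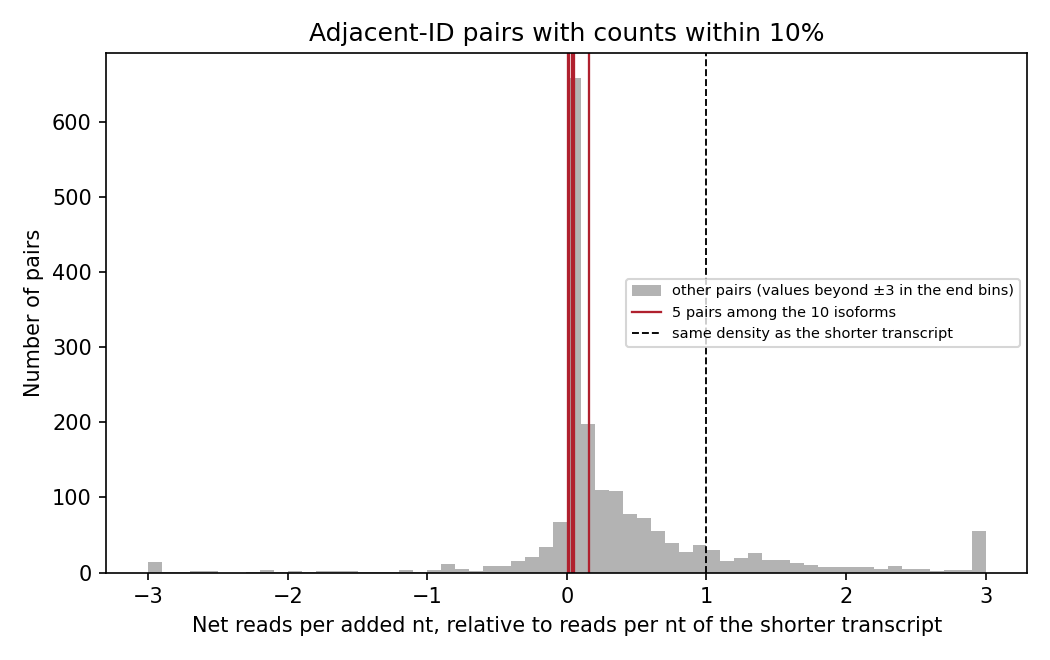
Number of pairs of adjacent IDs (grey bars, 1875 pairs) by net reads per added nt divided by the reads per nt of the shorter transcript, both libraries summed, with the 5 pairs within the 10 isoforms as red lines and equal density as a dashed line at 1. Most pairs lie between 0 and 1, and the 5 red lines lie between 0.00898 and 0.156, where the tallest bars of the other pairs also stand.

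The RefSeq table lists 4 HNRNPC-like genes and 9 HNRNPC pseudogenes elsewhere in the genome, and how reads that match several places were treated is not given in the sources used here. Reads shared with near-identical copies would leave the counts of the 10 isoforms uncertain, and their number was not measured here.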

How the data were processed

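CLIP-seq libraries of 2 replicates were analysed. The authors deposited raw counts, whole numbers per transcript, and TPM values for the same transcripts, per the file headers. Columns were matched to samples by replicate number. The submitters' processing notes list cutadapt 4.1, STAR 2.7.0d and the build hg38, while the IDs follow UCSC naming for hg19. The counting program and the handling of duplicates are not given in the sources used here. Counts were used as deposited and scaled to CPM. Count divided by TPM is proportional to length, and the smallest scale that made all 57721 values whole (within 5.1e-10) gave the lengths. log2 ratios used 0.5 added counts. With 1 group, edgeR offers no contrast; edgeR 4.0.16 (TMM) and DESeq2 1.42.0 (size factors), in R 4.3.3, served as alternative scalings. The exact binomial test used scipy 1.17.1 on Python 3.11.15. Tested on simulated data for 46395 transcripts, it recovered 100% of the 200 changed 2-fold (drawn from those with 200 or more reads) and called 0.015% of the unchanged. The simulated counts held Poisson noise alone, with no further spread between libraries, so few false calls were built in. This gives no error rate for the real libraries. Every simulated length was recovered, but planted short lengths fixed the scale there, so this does not check the scale of the real lengths. The isoforms, lists and tests were chosen with earlier results of these data known. The text names the 10 isoforms, other IDs inside their ID interval, the transcripts just outside the 10 and the 2 closest in level. ID neighbours were added after their values were seen. Intervals cover counting error only, since amplified copies of a read are no separate molecules. The limit given for a count of 0 is 3 counts.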

Additional observations from a re-analysis of the deposited data

How the results depend on the processing

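All 10 isoforms stayed past the adjusted threshold of the exact binomial test under TMM or DESeq2 scaling, a library total without the 10, no minimum and a minimum of 50 summed reads, with a median log2 ratio of 0.31 to 0.35. At the read numbers of these isoforms, the changes of minimum and of library total could hardly have moved the calls. The mean of 1272 CPM was 1136 without replicate 1, 1407 without replicate 2 and 1274 with TMM. The share of the library in the 10 isoforms, 1.27% of counts, was 0.865% of the deposited TPM total, and ran from 1.14 to 1.41% with 1 replicate left out. The net excess of the longest over the lowest isoform, 2.39% of reads, ran from 2.16 to 2.88% with 1 replicate left out and was 4.43% with uc001vzx.2 included. Within 10% of the median counts of the 10 lay 13 transcripts, the 10 included; within 5% there were 11 and within 2% there were 8, fewer by construction. The median relative density of other adjacent-ID pairs, 0.126, was 0.143 with at least 5000 summed reads, 0.12 with a length step of at least 10 nt and 0.264 with no limit on counts (72.4% below 1 against 85.7%), settings chosen after seeing the data. No paired analysis was possible because both replicates belong to a single group. Depth limits the smallest steps, of 2 and 3 reads.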
